A study of Caenorhabditis elegans with 12 samples.

Results

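The cytochrome P450 genes of Caenorhabditis elegans were followed across wild type worms and 3 mutant genotypes. Members were the rows of the deposited expression matrix whose gene identifier carries, in the WBcel235 annotation, a name made of cyp-, a family number and a letter, together with daf-9, a P450 gene named for its dauer phenotype. Cyclophilins, whose names begin with cyn-, were left out. The matrix held 58 such genes among 14326 genes (0.405%), in 24 subfamilies with daf-9 counted as one. The annotation gives 75 names of this form, and the other 17 were not analysed here. The members lay on chromosomes V (29 genes), II (10), X (7), IV (6), III (5) and I (1), and their summed exons ran from 890 to 2258 bp.

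Cytochrome P450 enzymes are haem proteins that insert an oxygen atom into a substrate, using electrons that a reductase, and for some reactions cytochrome b5, passes to them. Nematodes hold a large family of them. A few make defined products: DAF-9 makes the dafachronic acids that bind the nuclear receptor DAF-12 and steer dauer formation and reproduction, and other members make eicosanoids from polyunsaturated fatty acids or lipids of the eggshell. Most members of the cyp-13, cyp-14, cyp-33, cyp-34 and cyp-35 families are regarded as enzymes of foreign and endogenous lipophilic compounds, many are expressed in the intestine, and their RNA can change with diet and chemicals.

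RNA came from whole worms labelled as prefertile young adults, grown at 20 °C on NGM agar with OP50 bacteria, in 4 genotypes of 3 libraries each. Besides wild type and isp-1 there was a double mutant labelled isp-1;sod-3, named here for sod-3, and another labelled isp-1;sod-5, named for sod-5, so that both doubles also carry the isp-1 mutation. isp-1 encodes the Rieske iron-sulphur protein of mitochondrial complex III, sod-3 a mitochondrial and sod-5 a cytosolic superoxide dismutase; the labels give no alleles. The design text gives 9 isolates per genotype with 3 combined in each library, whereas the pooling label reads none, and the p-values measure the spread between these libraries, which may be partly technical. The comparisons that the design implies are isp-1 against wild type, each double mutant against isp-1 and against wild type, and the doubles against each other.

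Reads in genes ranged from 5438798 to 155071752 per library. sod-3 itself was at 1.68 to 2.60 CPM (read counts scaled to the reads in genes of each library) in wild type, 18.6 to 20.7 in isp-1, 15.1 to 26.1 in the sod-5 double mutant and 0.148 to 1.74 in the sod-3 double mutant. sod-5 was covered by at most 129 reads in any library and by 1 to 10 in isp-1, too few to check the sod-5 label, and isp-1 RNA was at 273 to 451 CPM in all 12 libraries. No gene of the intestine, cuticle, body wall muscle, pharynx, neuron, germline, oocyte or sperm marker lists was at 0 in any library. The summed intestine markers were at 3184 to 3310 CPM in wild type and 2668 to 2864 in isp-1, with 1 of 10 genes higher and none lower, and the sperm markers at 192 to 203 and 60.2 to 90.8 CPM, with 6 of 7 genes lower. The pharynx markers were at 595 to 711 CPM in wild type and 389 to 455 in isp-1, with 2 of 5 genes lower, and the body wall muscle markers at 6306 to 7369 and 5237 to 6012 CPM, with 0 of 5 called. Of the 10 cuticle markers 1 was lower, and no neuron, germline or oocyte marker was called. Over all genes tested, 9.60% were called higher and 10.4% lower in isp-1. In whole-worm RNA, fewer cells of a type and less RNA per cell cannot be told apart, and the part of these markers in the P450 results was not tested.

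Per kilobase of exon, a scale on which genes can be compared, the mean level in wild type was highest for cyp-31A2 (44.9 CPM per kb), followed by cyp-31A3 (37.8), cyp-31A5 (28.3), cyp-44A1 (22.7), cyp-35A2 (19.1) and cyp-34A8 (12.5). In isp-1 the first 4 places were unchanged, and cyp-34A8 (25.9 CPM per kb) and cyp-33C8 (25.3) came next. cyp-34A8 was second in both double mutants, at 52.9 CPM per kb in the sod-3 double and 46.6 in the sod-5 double. Summed over all 58 genes, P450 RNA made up 488, 509.7 and 505 CPM in wild type worms, 733, 677 and 685 in isp-1, 733, 1325 and 659 in the sod-3 double and 639.6, 783 and 907 in the sod-5 double. The 3 wild type sums lay below all others, and the sum of sod-3 double mutant replicate 2 was far above those of its group.

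**Figure D1:**
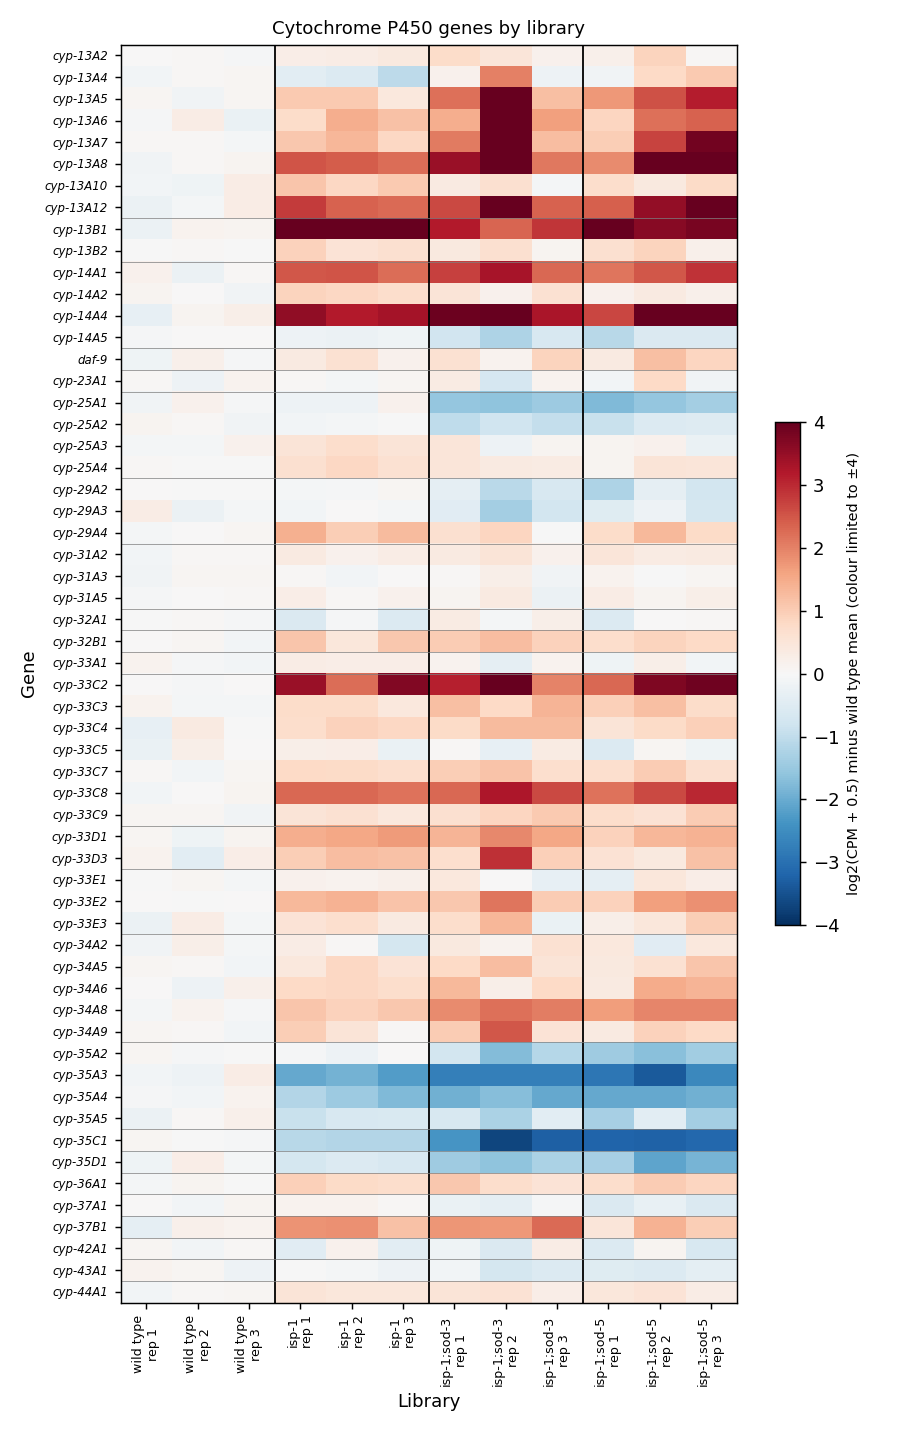
Each row is 1 of the 58 P450 genes and each column 1 of the 12 libraries. Colour gives log2(CPM + 0.5) minus the wild type mean of that gene, limited to 4 in either direction. Rises of cyp-13B1, cyp-14A1, cyp-14A4, cyp-33C2 and cyp-33C8 run through all mutant columns, the blue rows are mainly cyp-35 and cyp-25A genes, and 6 of the 8 cyp-13A rows are highest in isp-1;sod-3 replicate 2, cyp-13A2 and cyp-13A10 being the exceptions.

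isp-1 worms were first compared with wild type, which asks how P450 RNA differs in worms with a mutant complex III subunit. Genes of the cyp-13B, cyp-14A and cyp-33C groups, cyp-34A8, cyp-36A1 and cyp-44A1 were among those that rose, and 3 cyp-35 genes fell. By limma on log2(CPM + 0.5), with p-values adjusted over all 14013 genes tested and a call at adjusted p below 0.05, 21 of the 58 P450 genes rose and 3 fell. A fit of these 2 genotypes alone gave 32 higher and 6 lower, where 2700 of all 14013 genes were called higher and 3002 lower. A filter at 5 CPM left 36 members tested, with 12 higher and 1 lower, where 994 of 10106 genes were higher and 798 lower. In the main fit 9.60% of all genes tested were called higher, 10.4% lower and 20.0% in either direction. The median log2 fold change was 0.52 over the P450 genes and 0.01 over all genes. All 3 isp-1 libraries lay above all 3 wild type libraries for 36 members, against 26.0% of all genes, and below them for 8, against 25.7%. Every member passed the filter on low values, but cyp-35A3 and cyp-35A4 passed it through wild type alone, and cyp-35D1 through wild type and isp-1 alone. Conversely cyp-13B1, cyp-14A4, cyp-33C2, cyp-33D1, cyp-33D3, cyp-13A6, cyp-13A7 and cyp-13A8 passed it through mutant libraries alone. Without the filter the same 58 members were tested, again with 21 higher and 3 lower. That setting therefore cannot show what choosing members by level does. The matrix itself held only genes above 1 CPM in at least 2 libraries. Of the 24 calls, 13 held under every one of the 24 alternative settings and single-library omissions in which the gene was tested, and none changed sign; the calls that were lost are named with each gene.

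**Figure D2:**
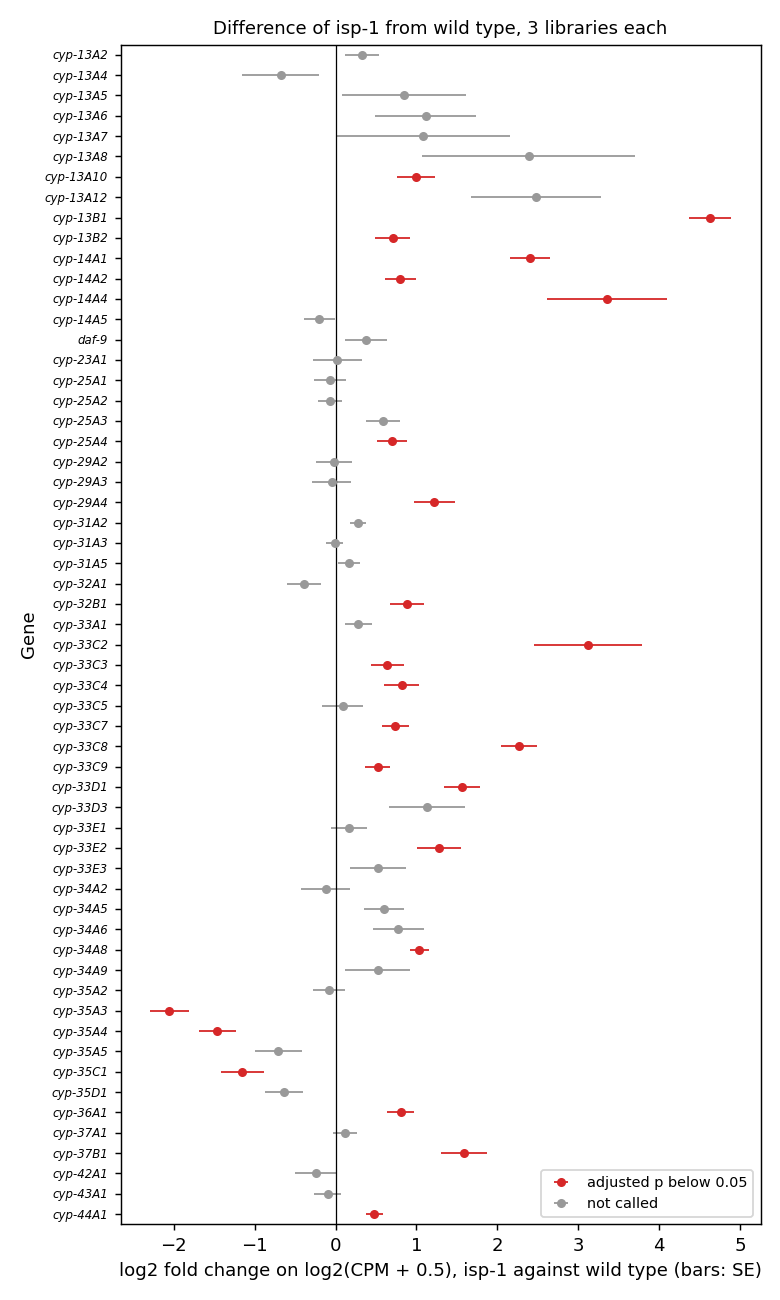
Points give the log2 fold change of each P450 gene in isp-1 against wild type on the log2(CPM + 0.5) scale, and bars its standard error. Red marks the 24 genes called at adjusted p below 0.05, 21 to the right of 0 and 3 to the left. cyp-13B1 lies farthest right at 4.63 and cyp-35A3 farthest left at -2.06.

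Among members with a defined product, daf-9 was at 1.99, 2.72 and 2.22 CPM in wild type worms, 3.08, 3.75 and 2.64 in isp-1, 3.75, 2.61 and 4.65 in the sod-3 double and 3.1, 5.88 and 4.55 in the sod-5 double. isp-1 and wild type libraries overlapped only between 2.64 and 2.72 CPM, and all 3 libraries of the sod-5 double lay above wild type. daf-9 was not called in isp-1 (log2 0.38, SE 0.26, adjusted p = 0.335) or in either double against isp-1 (adjusted p = 0.91 and 0.547). Against wild type it was called in the sod-5 double (log2 0.80, adjusted p = 0.0364) but not in the sod-3 double (log2 0.55, adjusted p = 0.154); the former call was lost without any one wild type library, isp-1 replicate 1 or sod-5 double replicate 2 or 3, and with a replicate block (highest adjusted p = 0.125).

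The cyp-31A genes, of which cyp-31A2 and cyp-31A3 act with the P450 reductase EMB-8 in making eggshell lipids, were not called in isp-1. cyp-31A2 was at 68.5, 75.9 and 75.4 CPM in wild type worms, 94.1, 82.9 and 90.6 in isp-1, 94.4, 103.7 and 83.1 in the sod-3 double and 103, 91.2 and 93.1 in the sod-5 double. Its isp-1 libraries lay above wild type without overlap, but the difference was not called (log2 0.28, SE 0.10, adjusted p = 0.0657), nor was that of cyp-31A3 (log2 -0.01, adjusted p = 0.959) or cyp-31A5 (log2 0.17, adjusted p = 0.415). Against wild type cyp-31A2 was called higher in the sod-3 double (log2 0.35, adjusted p = 0.0316) and the sod-5 double (log2 0.38, adjusted p = 0.0159). Both calls were lost with TMM factors, median centring, edgeR or DESeq2 and without wild type replicate 1 (highest adjusted p = 0.193 and 0.173); the first was also lost without wild type replicate 2 or 3 or sod-3 double replicate 1 or 2, in the fit of these 2 genotypes and with a replicate block, and the second without sod-5 double replicate 1. cyp-31A2 and cyp-31A3 are close copies whose reads the counting may have split, and an exon of cyp-31A5 shares 101 bp with a gene on the opposite strand.

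cyp-44A1, whose protein is predicted to be mitochondrial, was chosen after its values were seen. It was at 32.2, 36.1 and 37.2 CPM in wild type worms, 50.8, 48.5 and 48.1 in isp-1, 50.8, 52.2 and 42.1 in the sod-3 double and 48, 50.9 and 43.3 in the sod-5 double. All mutant libraries lay above all wild type libraries. It rose in isp-1 (log2 0.48, SE 0.11, adjusted p = 0.0102), a call that was lost without wild type replicate 1 (adjusted p = 0.051), and it was called against isp-1 in neither double (log2 -0.03 and -0.05). cyp-36A1, which acts downstream of the oxygen sensor EGL-9 and HIF-1 in a pathway that changes behaviour, was chosen here after its values were seen. cyp-36A1 was at 5.93, 6.78 and 6.16 CPM in wild type worms, 12.6, 11 and 10.6 in isp-1, 13.8, 10.6 and 9.36 in the sod-3 double and 10.5, 13.2 and 11.9 in the sod-5 double. Its 9 mutant libraries were also above wild type, and it rose in isp-1 (log2 0.81, SE 0.17, adjusted p = 0.00662) under every alternative tried. Its exons share 147 bp with figo-1 on the opposite strand, and the sources used here do not give the strand setting of the counting.

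Members with known or proposed roles in eicosanoid synthesis split. cyp-33E2, which makes eicosanoids in the pharynx, was at 7.88, 7.69 and 7.87 CPM in wild type worms, 20.1, 21.3 and 17.8 in isp-1, 17, 35.8 and 16.3 in the sod-3 double and 15.3, 25.6 and 29 in the sod-5 double. No isp-1 or double mutant library overlapped wild type, and cyp-33E2 rose in isp-1 (log2 1.28, SE 0.28, adjusted p = 0.00841), where the summed pharynx markers were lower (389 to 455 CPM, 595 to 711 in wild type). cyp-29A4 was at 1.37, 1.5 and 1.6 CPM in wild type worms, 4.87, 3.4 and 4.25 in isp-1, 2.6, 3.08 and 1.48 in the sod-3 double and 2.82, 4.41 and 2.9 in the sod-5 double. It rose in isp-1 as well (log2 1.22, SE 0.25, adjusted p = 0.00649), with sod-3 double mutant replicate 3 alone falling back among the wild type values. cyp-29A2 was at 13.2, 12.9 and 12.8 CPM in wild type worms, 12.1, 12.6 and 13.7 in isp-1, 10.1, 5.83 and 8.07 in the sod-3 double and 5.27, 9.93 and 7.54 in the sod-5 double. isp-1 overlapped wild type and was not called (log2 -0.02, SE 0.22, adjusted p = 0.964), while all 6 double mutant libraries lay below isp-1 without being called (adjusted p = 0.266 for the sod-3 double and 0.144 for the sod-5 double). cyp-29A3, another enzyme of eicosanoid synthesis, gave -0.05 in isp-1 on the log2 scale (adjusted p = 0.919). Of the 3 cyp-33E genes 1 rose in isp-1, as did 1 of the 3 cyp-29A genes.

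Among the 58 members the largest log2 rise in isp-1 was that of cyp-13B1 on the X chromosome (bases 13406674 to 13409643). It was at 0.248, 0.481 and 0.453 CPM in wild type worms, 29, 15 and 22.9 in isp-1, 7.46, 3.95 and 6.0 in the sod-3 double and 13.6, 10.5 and 11.9 in the sod-5 double. The 4 genotypes did not overlap at all: wild type was lowest, then the sod-3 double, the sod-5 double and isp-1. cyp-13B1 rose in isp-1 (log2 4.63, SE 0.26, adjusted p = 1.66e-07) and fell from isp-1 in the sod-3 double (log2 -1.84, SE 0.26, adjusted p = 0.00212), both under every alternative, and its lower level in the sod-5 double was not called (log2 -0.82, SE 0.26, adjusted p = 0.204). Both doubles still stood above wild type (log2 2.79 and 3.81, adjusted p = 1.19e-05 and 5.61e-07). Its neighbour in name, cyp-13B2, rose by less (log2 0.71, adjusted p = 0.036), from 3.04 to 3.26 CPM in wild type to 4.79 to 6.35 in isp-1; that call was lost without any one wild type or isp-1 library, without sod-3 double replicate 1 and with a filter at 5 CPM (highest adjusted p = 0.143).

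Of the 4 cyp-14A genes, 3 lie side by side on chromosome X (bases 13265041 to 13284197), and all 3 of these rose in isp-1. cyp-14A1 was at 3.26, 2.35 and 2.98 CPM in wild type worms, 18.1, 18.7 and 15.2 in isp-1, 22, 32.1 and 15.8 in the sod-3 double and 14.1, 18.4 and 24.4 in the sod-5 double. Every mutant library exceeded every wild type library by a wide margin (log2 2.41, SE 0.25, adjusted p = 3.87e-05). cyp-14A4 was at 0.435, 0.748 and 0.859 CPM in wild type worms, 13.1, 10.1 and 11.3 in isp-1, 17.3, 79.4 and 10.8 in the sod-3 double and 6.86, 23.9 and 44.4 in the sod-5 double. Its rise in isp-1 was larger and less even (log2 3.35, SE 0.74, adjusted p = 0.0137), with sod-3 double mutant replicate 2 and sod-5 double mutant replicate 3 far above the rest of their groups, and the call was lost without wild type replicate 1 (adjusted p = 0.0509). cyp-14A2 rose by less (log2 0.80, adjusted p = 0.0127), and was not called without wild type replicate 3 or isp-1 replicate 1 (highest adjusted p = 0.0567). cyp-14A5, on chromosome V, was at 12.1 to 12.9 CPM in wild type and 10.5 to 11.1 in isp-1, without a call (adjusted p = 0.508).

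Of the 7 cyp-33C genes, all on chromosome V, 6 rose in isp-1 and none fell, with a median log2 fold change of 0.74. cyp-33C8 was at 7.64, 8.49 and 9.0 CPM in wild type worms, 43.3, 43.4 and 39.6 in isp-1, 43.2, 83.4 and 54.5 in the sod-3 double and 39.6, 54.6 and 71.1 in the sod-5 double. isp-1 and both doubles lay well above wild type, and the doubles overlapped isp-1 (isp-1 against wild type log2 2.26, SE 0.22, adjusted p = 3.36e-05). cyp-33C2 was at 0.31, 0.267 and 0.31 CPM in wild type worms, 8.13, 3.22 and 9.88 in isp-1, 6.36, 23.9 and 2.65 in the sod-3 double and 3.39, 10.1 and 11.3 in the sod-5 double. It was covered by 10, 5 and 13 reads in wild type, and rose in isp-1 (log2 3.12, SE 0.67, adjusted p = 0.0101) although isp-1 replicate 2 was well below the other two. The 4 smaller rises ran from log2 0.52 for cyp-33C9 to 0.82 for cyp-33C4. Those of cyp-33C3 and cyp-33C9 were lost without any one wild type or isp-1 library and with a replicate block, that of cyp-33C3 also without sod-3 double replicate 1 and with a filter at 5 CPM, that of cyp-33C4 without wild type replicate 1 or 3 or any isp-1 library, and that of cyp-33C7 without wild type replicate 2 (highest adjusted p = 0.144, 0.11, 0.0866 and 0.0511). cyp-33C5, inside the same stretch of genes, was at 1.37 to 2.14 CPM in wild type and 1.38 to 2.18 in isp-1 (log2 0.09, adjusted p = 0.855).

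cyp-33D1 was at 0.404, 0.267 and 0.43 CPM in wild type worms, 1.85, 2.0 and 2.3 in isp-1, 1.73, 2.75 and 2.0 in the sod-3 double and 1.13, 1.65 and 1.75 in the sod-5 double. It rose in isp-1 (log2 1.56, SE 0.22, adjusted p = 0.00054) from 13, 5 and 18 reads in wild type, and no mutant library overlapped wild type. cyp-37B1 was at 0.528, 1.02 and 0.931 CPM in wild type worms, 4.0, 4.1 and 2.41 in isp-1, 3.98, 3.88 and 5.81 in the sod-3 double and 1.32, 2.94 and 2.1 in the sod-5 double. It too rose in isp-1 (log2 1.59, SE 0.29, adjusted p = 0.00289), and its sod-5 double libraries lay above wild type and, in all but 1 case, below every isp-1 library. cyp-33D1 shares 94 bp of exon and cyp-37B1 69 bp with a gene on the opposite strand. cyp-32B1, beside cyp-33C2, rose in isp-1 (log2 0.88, adjusted p = 0.0135) but not without wild type replicate 3 or isp-1 replicate 1 or 3 (highest adjusted p = 0.0666).

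cyp-34A8 on chromosome V (bases 3964797 to 3967823) stepped up from genotype to genotype. It was at 18.7, 21.6 and 19.1 CPM in wild type worms, 43.1, 37.9 and 42.2 in isp-1, 74, 93.8 and 83.8 in the sod-3 double and 64.7, 78.7 and 78.1 in the sod-5 double. No library of a double mutant overlapped isp-1, and no isp-1 library overlapped wild type. cyp-34A8 rose in isp-1 (log2 1.03, SE 0.12, adjusted p = 9.12e-05), and rose again relative to isp-1 in the sod-3 double (log2 1.02, SE 0.12, adjusted p = 0.000377) and in the sod-5 double (log2 0.84, SE 0.12, adjusted p = 0.00198), each under every alternative. The other 4 cyp-34A genes were not called in isp-1, with log2 fold changes from -0.12 (cyp-34A2) to 0.78 (cyp-34A6). cyp-34A9, also known as dod-16, an insulin-signalling target, was also chosen after its values were seen. It was at 6.95, 6.73 and 6.01 CPM in wild type worms, 13.5, 9.67 and 6.78 in isp-1, 13.8, 38.9 and 9.75 in the sod-3 double and 8.56, 12.9 and 11.8 in the sod-5 double, so that sod-3 double mutant replicate 2 alone was far from the rest.

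**Figure D3:**
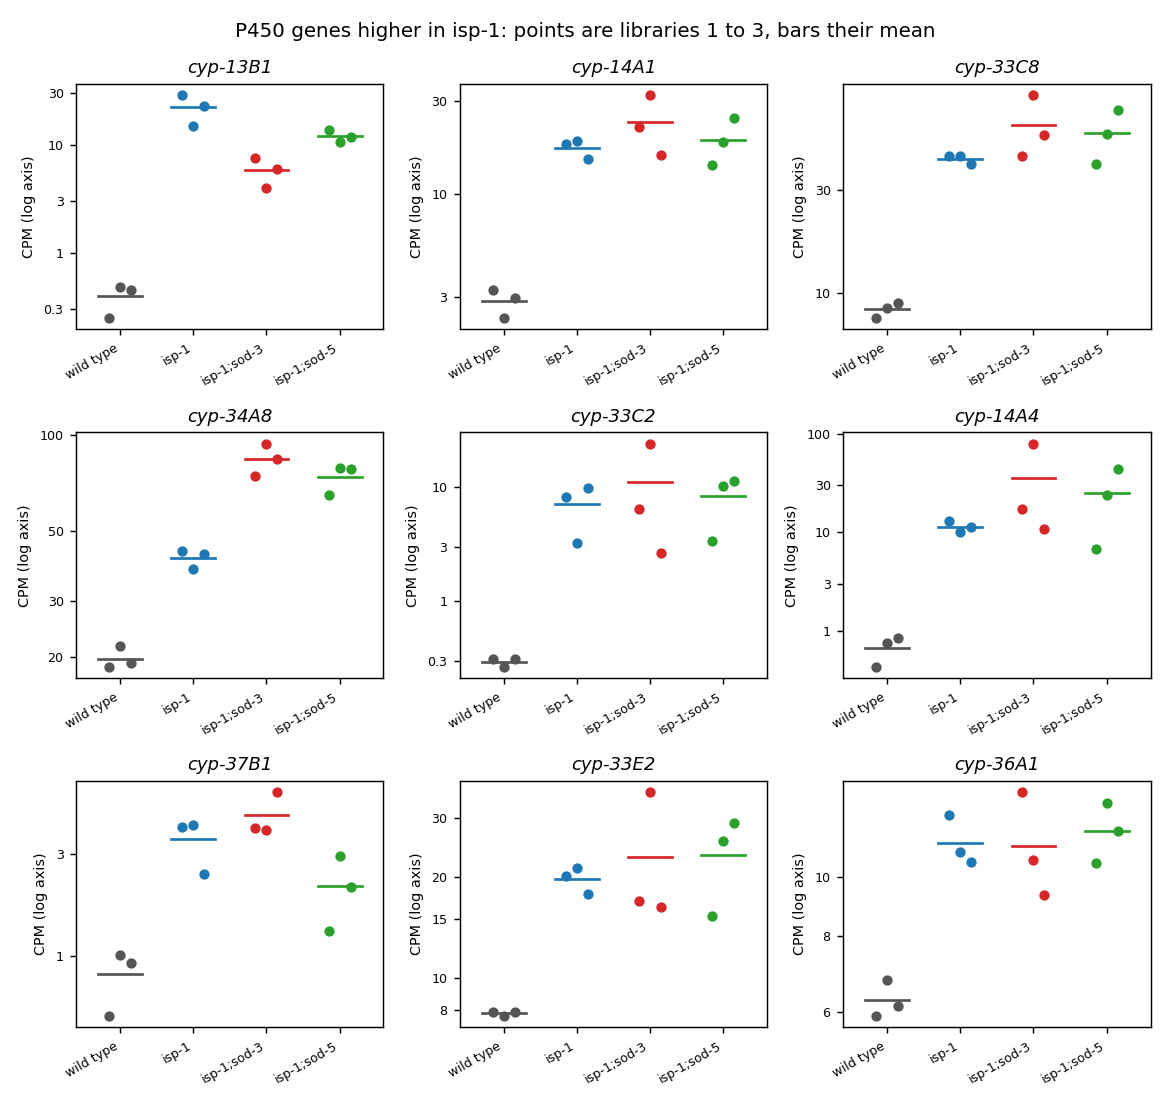
CPM of 9 P450 genes that rose in isp-1, on log axes, with 1 point per library in replicate order and a bar at the mean of each genotype. Wild type lies lowest in all 9 panels. cyp-34A8 steps up again in both double mutants, and cyp-13B1 steps down. sod-3 double mutant replicate 2 is the highest point for cyp-33C2 (23.9 CPM), cyp-14A4 (79.4), cyp-14A1 (32.1), cyp-33C8 (83.4), cyp-34A8 (93.8) and cyp-33E2 (35.8), and not for the others.

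All 3 falls in isp-1 were among the cyp-35 genes, of which cyp-35A3 and cyp-35A4 had passed the filter through wild type alone. These genes respond to xenobiotics, and the cyp-35A genes are linked to fat storage. cyp-35A3 was at 4.22, 3.95 and 5.75 CPM in wild type worms, 0.739, 0.871 and 0.574 in isp-1, 0.258, 0.268 and 0.258 in the sod-3 double and 0.188, 0 and 0.35 in the sod-5 double. cyp-35A4 was at 1.52, 1.44 and 1.81 CPM in wild type worms and 0.431, 0.261 and 0.115 in isp-1, from 49, 27 and 76 reads in wild type and 7, 3 and 1 in isp-1. All isp-1 libraries lay below wild type for both neighbours, and cyp-35A3 (log2 -2.06, SE 0.24, adjusted p = 0.000119) and cyp-35A4 (log2 -1.46, SE 0.22, adjusted p = 0.000967) fell. cyp-35A4 was covered by 7, 2 and 0 reads in the sod-3 double and 0, 0 and 1 in the sod-5 double, too few for a fold change. cyp-35A3 was covered by 40, 4 and 4 reads in the sod-3 double and 2, 0 and 7 in the sod-5 double, also few. The fit nevertheless called both genes lower than wild type in both doubles, and the counts below include these calls. The fall of cyp-35A4 in isp-1 likewise rests on few reads there.

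cyp-35C1 (chromosome V, bases 13896663 to 13898487) was at 18.9, 17.5 and 17.3 CPM in wild type worms, 8.07, 7.67 and 7.58 in isp-1, 3.06, 0.938 and 1.42 in the sod-3 double and 1.5, 1.47 and 1.6 in the sod-5 double. Wild type, isp-1 and the doubles formed 3 separate levels. It fell in isp-1 (log2 -1.15, SE 0.26, adjusted p = 0.0106), and fell further from isp-1 in the sod-3 double (log2 -1.95, SE 0.26, adjusted p = 0.00136) and in the sod-5 double (log2 -2.03, SE 0.26, adjusted p = 0.00107), with all 3 calls kept under every alternative. Against wild type the log2 fold change reached -3.1 in the sod-3 double and -3.18 in the sod-5 double.

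cyp-35A2 was at 32, 29.2 and 29.7 CPM in wild type worms, 29.4, 26.3 and 30.4 in isp-1, 18.1, 8.77 and 13.4 in the sod-3 double and 10.9, 9.19 and 11.3 in the sod-5 double. Here isp-1 and wild type overlapped (log2 -0.08, adjusted p = 0.831), and every double mutant library lay below both. It fell from isp-1 in the sod-5 double (log2 -1.42, SE 0.20, adjusted p = 0.00198) and in the sod-3 double (log2 -1.13, SE 0.20, adjusted p = 0.0106); the latter call was lost without isp-1 replicate 1 or 3 and in a fit of these 2 genotypes alone (highest adjusted p = 0.11). cyp-35D1, known for metabolism of the anthelmintic thiabendazole, was at 2.11, 2.99 and 2.24 CPM in wild type worms, 1.29, 1.48 and 1.38 in isp-1, 0.593, 0.469 and 0.71 in the sod-3 double and 0.658, 0.184 and 0.30 in the sod-5 double. The order wild type, isp-1, double mutants held without overlap except between the doubles. cyp-35D1 had passed the filter through wild type and isp-1 libraries alone, the groups where it was high. Its fall from isp-1 was called in the sod-5 double (log2 -1.13, SE 0.24, adjusted p = 0.0334) and not in the sod-3 double (log2 -0.79, adjusted p = 0.197). The former call rested on 21, 17 and 12 reads in isp-1 and 7, 1 and 6 in the sod-5 double and was lost without any one wild type or isp-1 library, sod-3 double replicate 1 or sod-5 double replicate 2 or 3, in the fit of these 2 genotypes and with a replicate block (highest adjusted p = 0.171). cyp-35A5 was at 3.38 to 4.72 CPM in wild type and 1.97 to 2.53 in isp-1, without a call (adjusted p = 0.103).

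The 4 cyp-25A genes lie together on chromosome III (bases 3832591 to 3852080). cyp-25A1 was at 4.78, 6.04 and 5.15 CPM in wild type worms, 4.56, 4.53 and 6.09 in isp-1, 1.48, 1.41 and 1.61 in the sod-3 double and 1.22, 1.47 and 1.75 in the sod-5 double. cyp-25A2 was at 16, 15.5 and 13.4 CPM in wild type worms, 13.9, 14.1 and 14.8 in isp-1, 7.11, 8.37 and 7.49 in the sod-3 double and 7.9, 10.1 and 10.4 in the sod-5 double. For both, isp-1 overlapped wild type and all 6 double mutant libraries lay below isp-1. cyp-25A1 fell from isp-1 in the sod-3 double (log2 -1.47, SE 0.20, adjusted p = 0.00136) and the sod-5 double (log2 -1.49, SE 0.20, adjusted p = 0.0013) under every alternative. cyp-25A2 fell in the sod-3 double (log2 -0.86, SE 0.15, adjusted p = 0.00888), though not without isp-1 replicate 3 (adjusted p = 0.0661), and was not called in the sod-5 double (log2 -0.58, SE 0.15, adjusted p = 0.0891). cyp-25A4 rose in isp-1 (log2 0.70, adjusted p = 0.0202), a call lost without any one wild type or isp-1 library (highest adjusted p = 0.073), and cyp-25A3 was at log2 0.58, adjusted p = 0.0644.

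**Figure D4:**
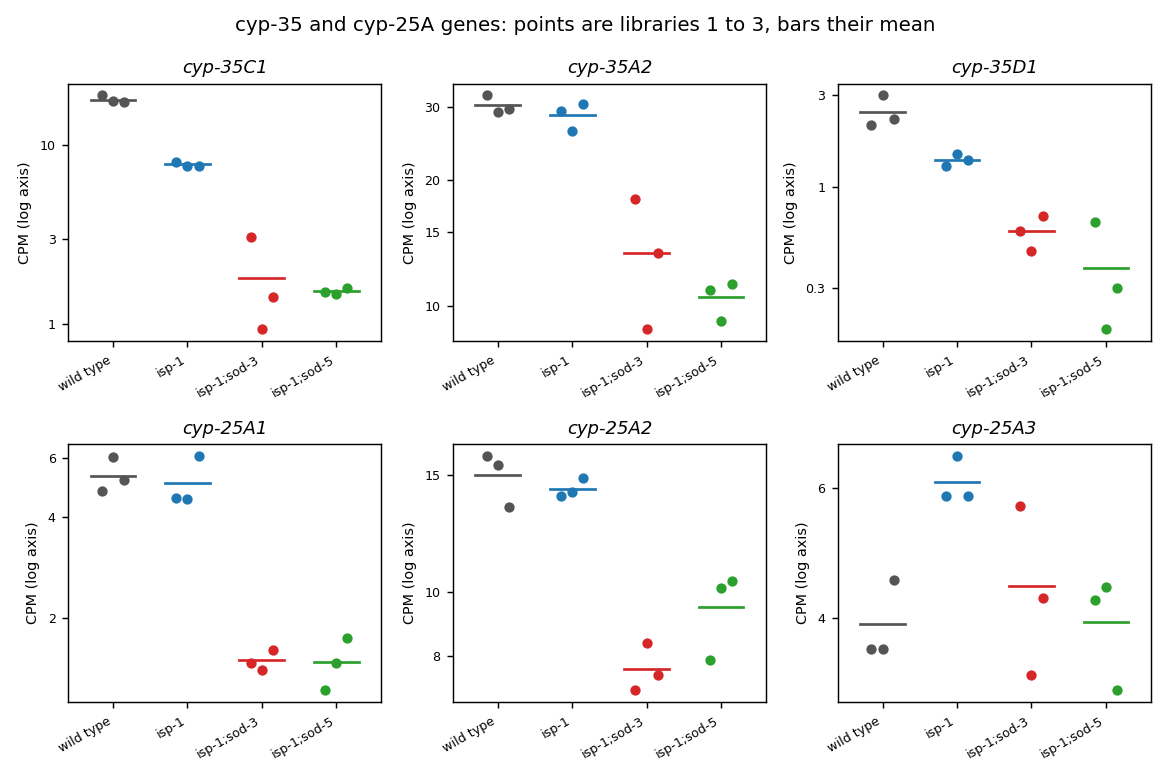
CPM of 3 cyp-35 and 3 cyp-25A genes on log axes, with 1 point per library in replicate order and a bar at the mean. Double mutant points lie below isp-1 in all 6 panels. For cyp-35C1 and cyp-35D1 isp-1 itself lies below wild type, whereas for cyp-35A2, cyp-25A1 and cyp-25A2 the isp-1 and wild type points overlap.

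The cyp-13A subfamily stood out by its spread between libraries of the same double mutant. The 8 genes summed to 18.4, 18.3 and 18.8 CPM in wild type worms, 40.5, 39.2 and 34 in isp-1, 64.1, 466 and 38 in the sod-3 double and 42, 92.7 and 183 in the sod-5 double. Wild type and isp-1 replicates were even and did not overlap, while sod-3 double mutant replicate 2 and sod-5 double mutant replicate 3 were far above the other libraries of their groups. cyp-13A5 was at 4.84, 4.06 and 4.77 CPM in wild type worms, 9.98, 10.02 and 6.32 in isp-1, 22.7, 152 and 11 in the sod-3 double and 16.4, 29.1 and 44.5 in the sod-5 double. cyp-13A8, chosen after its values were seen, was at 0.217, 0.321 and 0.358 CPM in wild type worms, 4.07, 3.75 and 3.22 in isp-1, 8.18, 139 and 2.97 in the sod-3 double and 2.45, 15.8 and 66.4 in the sod-5 double. Its reads in the sod-3 double numbered 1269, 2076 and 46. On the log2 scale its SD was 2.78 within the sod-3 double and 2.26 within the sod-5 double, the largest of any member in either group.

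In isp-1, cyp-13A10 alone of the 8 was called higher (log2 0.99, SE 0.24, adjusted p = 0.0136), from 0.694 to 1.17 CPM to 1.92 to 2.4. The call was lost without wild type replicate 1 or 2 or isp-1 replicate 1 or 3 (highest adjusted p = 0.063). All isp-1 libraries also lay above wild type for cyp-13A2, cyp-13A5, cyp-13A6, cyp-13A7, cyp-13A8 and cyp-13A12, and below it for cyp-13A4. The 4 genotypes share one estimate of spread, so the SE of each gene includes its spread in the doubles. For cyp-13A8 the SE was 1.31, with a log2 SD of 0.13 in wild type and 0.15 in isp-1. cyp-13A5 was not called in isp-1 (log2 0.85, SE 0.77, adjusted p = 0.488) or in either double against isp-1 (adjusted p = 0.491 and 0.45), and the same held for cyp-13A8 (adjusted p = 0.239, 0.759 and 0.635). cyp-13A12, which shapes behaviour on the return of oxygen, was chosen after its values were seen. It was at 0.621, 0.748 and 1.12 CPM in wild type worms, 8.56, 6.27 and 5.86 in isp-1, 7.75, 62.1 and 6.26 in the sod-3 double and 6.39, 14.5 and 35.7 in the sod-5 double. All mutant libraries lay above wild type, and the difference in isp-1 just missed the threshold (log2 2.48, SE 0.80, adjusted p = 0.0544). cyp-13A7, known for induction by rifampicin, ranged from 2.13 to 69.99 CPM within the sod-3 double and was called in none of the comparisons. cyp-13A2 was at 8.81 to 9.4 CPM in wild type and 11.2 to 12.3 in isp-1, without overlap but also without a call (log2 0.33, adjusted p = 0.296). cyp-13A4 was at 1.37 to 1.6 CPM in wild type and 0.459 to 0.986 in isp-1, without a call (adjusted p = 0.358). The 6 cyp-13A genes of chromosome II that adjoin each other (bases 9783384 to 9807569) may share reads where their sequences are alike.

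The 2 libraries that were high for cyp-13A genes were alike in some tissue markers and unlike in others. They had the lowest summed body wall muscle markers (4548 CPM in sod-3 double mutant replicate 2 and 4055 in sod-5 double mutant replicate 3, 5237 to 8103 in the other 10 libraries) and the lowest pharynx markers (386 and 362 CPM, 389 to 711 in the others). In sod-3 double mutant replicate 2 the summed cuticle markers (1157 CPM, 1563 to 2292 in the other 11 libraries) and sperm markers (45.3 CPM, 60.2 to 203 in the others) were lowest and the oocyte markers highest (6488 CPM, 4402 to 6007 in the others). In sod-5 double mutant replicate 3 the oocyte markers were lowest, at 4402 CPM, and the sperm markers, at 125 CPM, highest of its group. Its neuron markers were the highest (422 CPM, 284 to 365 in the others). The intestine markers of the 2 libraries (2743 and 3109 CPM) lay within the range of the others (2549 to 3310), as did the germline markers (2677 and 2484 CPM, 2456 to 2794 in the others). No marker gene of any list was called in either double against isp-1, where 1.08% and 1.21% of all genes were called. The part of these markers in the cyp-13A values was not tested.

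**Figure D5:**
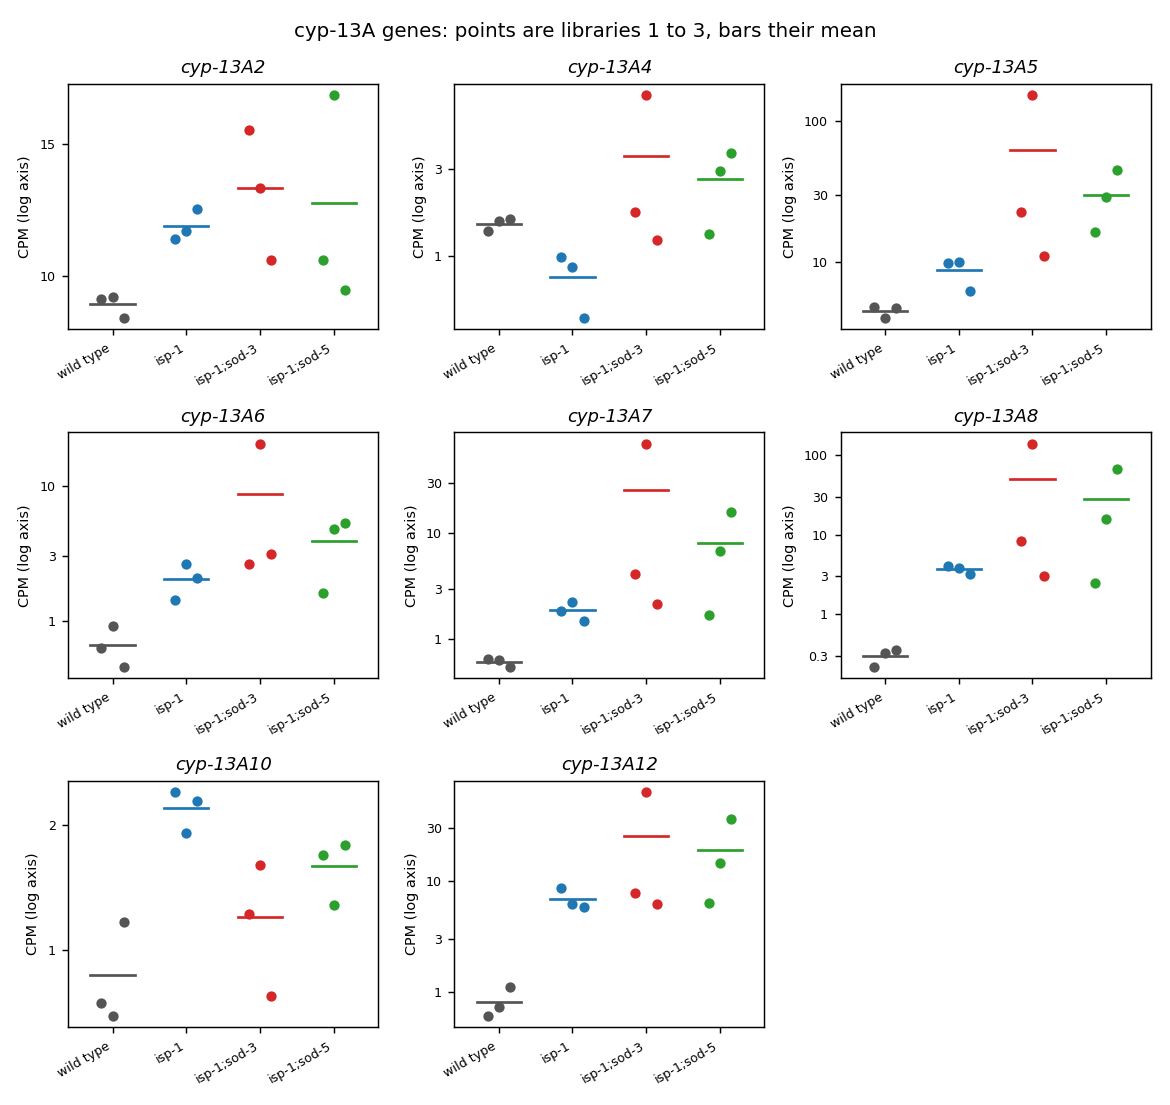
CPM of the 8 cyp-13A genes on log axes, with 1 point per library in replicate order and a bar at the mean. In 6 panels the middle red point, isp-1;sod-3 replicate 2, is the highest of all 12 libraries, reaching 152 CPM for cyp-13A5 and 139 CPM for cyp-13A8. cyp-13A2 and cyp-13A10 do not show this.

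Comparing each double mutant with isp-1 asks how P450 RNA differs when a superoxide dismutase mutation is added to isp-1. cyp-34A8 was higher and cyp-35C1, cyp-25A1 and cyp-35A2 were lower in both. Against isp-1 the sod-3 double had 1 P450 gene higher (cyp-34A8) and 5 lower (cyp-35C1, cyp-13B1, cyp-25A1, cyp-35A2 and cyp-25A2), where 0.557% of all genes were called higher, 0.528% lower and 1.08% either way. The sod-5 double had 1 higher (cyp-34A8) and 4 lower (cyp-35C1, cyp-25A1, cyp-35A2 and cyp-35D1), where 0.642% were called higher, 0.564% lower and 1.21% either way. Both comparisons share the isp-1 libraries, so that their values stand side by side and are not independent. Median log2 fold changes were 0.05 for the sod-3 double and -0.05 for the sod-5 double, and 0.03 and 0.05 over all genes.

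Libraries of the sod-3 double lay entirely below isp-1 for 17 members and above for 5, against 6.77% and 8.79% of all genes, and those of the sod-5 double below for 19 and above for 3, against 5.82% and 11%. Without sod-3 double mutant replicate 2, the library that was the highest of all 12 for 23 of the 58 members (39.7%, against 9.03% of all genes), the count was again 1 higher and 5 lower in the sod-3 double, and 3 higher and 4 lower in the sod-5 double. Counts over all genes without that library are not given here. With DESeq2 the counts were 4 higher and 7 lower in the sod-3 double, where 154 of all 14013 genes were higher and 169 lower. In the sod-5 double DESeq2 gave 1 higher and 9 lower, where 145 of all genes were higher and 189 lower.

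Compared directly, the double mutants did not differ in any P450 gene at adjusted p below 0.05 by limma, edgeR or DESeq2, where 0.107% of all genes were called (0.0285% higher and 0.0785% lower in the sod-3 double). At an unadjusted p below 0.05 limma gave 2 members, cyp-37B1, higher in the sod-3 double (log2 0.98, adjusted p = 0.92), and cyp-13B1, lower there (log2 -1.02, adjusted p = 0.667). Libraries of the doubles did not overlap for 2 members higher and 1 lower in the sod-3 double, against 1.96% and 3.27% of all genes. That cyp-13B1 was called against isp-1 in one double and not in the other is therefore not a called difference between them, and the same applies to cyp-25A2 and cyp-35D1 (adjusted p = 0.92 and 0.92).

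Against wild type, 24 P450 genes were higher and 10 lower in the sod-3 double, where 10.4% of all genes were called higher, 6.57% lower and 17.0% either way. In the sod-5 double 23 were higher and 11 lower, against 14.1%, 10.2% and 24.3%. Libraries did not overlap for 30 members higher and 11 lower in the sod-3 double (22% and 17.8% of all genes), and for 34 and 12 in the sod-5 double (23.7% and 18.6%). Without sod-3 double mutant replicate 2 the counts were 19 higher and 8 lower in the sod-3 double and 28 higher and 12 lower in the sod-5 double. These comparisons share their wild type libraries with that of isp-1. Counts over all genes without sod-3 double mutant replicate 2 are not given here.

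Of the members not called in isp-1, cyp-14A5, cyp-25A1, cyp-25A2, cyp-29A2, cyp-35A2 and cyp-35D1 were called lower than wild type in both doubles. Over all genes 6.57% were called lower in the sod-3 double and 10.2% in the sod-5 double. The share of all genes with the joint pattern was not counted. For cyp-25A1 the log2 fold change was -0.07 in isp-1, -1.54 in the sod-3 double and -1.56 in the sod-5 double (adjusted p = 0.842, 0.000162 and 0.000136). For cyp-35A2 it was -0.08, -1.20 and -1.49 (adjusted p = 0.831, 0.00117 and 0.000207). cyp-14A5 gave -0.20, -0.88 and -0.75 (adjusted p = 0.508, 0.00721 and 0.0138), the last call being lost without wild type replicate 2 (adjusted p = 0.0511). cyp-14A5 was not called in either double against isp-1 (adjusted p = 0.16 and 0.257). cyp-25A2 gave -0.06, -0.92 and -0.64 (adjusted p = 0.809, 0.000913 and 0.0082), and cyp-35D1 -0.64, -1.43 and -1.77 (adjusted p = 0.0751, 0.00116 and 0.000209). Of these genes cyp-35D1 had passed the filter through wild type and isp-1 alone. cyp-29A2 gave -0.02, -0.70 and -0.78 (adjusted p = 0.964, 0.0446 and 0.0221). Its call in the sod-3 double was lost without any one wild type or isp-1 library, without sod-3 double replicate 2 or 3, in the fit of these 2 genotypes and with a replicate block, and that in the sod-5 double without any one wild type library or sod-5 double replicate 1 (highest adjusted p = 0.156 and 0.075). cyp-29A3 and cyp-34A9 were called in the sod-3 double alone (log2 -0.85 and 1.35) and cyp-35A5 and cyp-34A6 in the sod-5 double alone (log2 -1.03 and 1.07), without a called difference between the doubles; these calls were lost in 6, 7, 4 and 6 alternatives (highest adjusted p = 0.139, 0.10, 0.0788 and 0.101). Of the cyp-13A genes, cyp-13A12 was called higher than wild type in the sod-3 double (log2 3.53, adjusted p = 0.0148) and the sod-5 double (log2 3.56, adjusted p = 0.011), the first not without wild type replicate 1 or 2 (highest adjusted p = 0.0538).

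Several of the calls against wild type in the sod-3 double rested in size on its replicate 2. For cyp-13A5 the log2 fold change was 2.77 with that library (adjusted p = 0.0347) and 1.70 without it (adjusted p = 0.0109), for cyp-13A6 2.43 and 1.55 (adjusted p = 0.0206 and 0.0174), and for cyp-13A12 3.53 and 2.51 (adjusted p = 0.0148 and 0.00742). These 3 were called with and without that library. The call of cyp-13A5 was nevertheless lost without any one wild type library, without sod-3 double replicate 1 and in the fit of these 2 genotypes (highest adjusted p = 0.102), and that of cyp-13A6 without any one wild type library, in the fit of these 2 genotypes and with DESeq2 (highest adjusted p = 0.0658). The log2 fold change of cyp-13A8 went from 4.34 to 2.78 and that of cyp-33D3 from 1.52 to 0.81, and neither was called without it (adjusted p = 0.124 and 0.0897). These 2 calls were lost in 14 of 24 and 13 of 23 alternatives (highest adjusted p = 0.124 and 0.148). Both were lost without any one wild type or isp-1 library, at a pseudocount of 1, with median centring or quantile normalization, in the fit of these 2 genotypes and with a replicate block. In the sod-5 double against wild type cyp-13A5 (log2 2.48, adjusted p = 0.0408) and cyp-13A8 (log2 4.21, adjusted p = 0.0421) were called, and lost in 10 and 11 of 24 alternatives, the omission of any one wild type library among them.

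Besides cyp-13A6 and cyp-33D3, the members without values so far were cyp-23A1, cyp-32A1, cyp-33A1, cyp-33E1, cyp-33E3, cyp-34A5, cyp-37A1, cyp-42A1 and cyp-43A1. None of these 11 was called in isp-1 against wild type, in either double against isp-1 or between the doubles. Their log2 fold changes in isp-1 ran from -0.39 for cyp-32A1 (adjusted p = 0.216) to 1.13 for cyp-33D3 (adjusted p = 0.107). Against wild type the sod-3 double called cyp-34A5 (log2 0.85), cyp-33D3 (log2 1.52) and cyp-13A6 (log2 2.43), and the sod-5 double cyp-37A1 (log2 -0.48). The calls of cyp-34A5 and cyp-37A1 were lost under 6 and 7 alternatives (highest adjusted p = 0.112 and 0.0959).

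Position along the chromosomes was described with runs of members whose gaps were under 20000 bp. There were 8 runs, holding 28 members. On chromosome X the run of cyp-14A1, cyp-14A2 and cyp-14A4 held 3 rises in isp-1. On chromosome V cyp-33C2 and cyp-32B1 (bases 2183488 to 2201415) both rose, 3 of the 4 genes cyp-33C4, cyp-33C3, cyp-33C5 and cyp-33C7 (bases 2236140 to 2252591) rose, and cyp-35A3 and cyp-35A4 (bases 4022609 to 4033446) both fell. The run of cyp-35A5 with 4 cyp-34A genes (bases 3936326 to 3970540) held 1 rise, cyp-34A8, and the 6-gene cyp-13A run on chromosome II held none. Genes of a run are often close in sequence, and reads may be shared between them.

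Of 3 genes that supply electrons to P450 enzymes, 1 rose in isp-1, where 9.60% of all genes were called higher. emb-8, the NADPH P450 reductase, was at 173 to 196 CPM in wild type, 246 to 268 in isp-1, 269.5 to 356 in the sod-3 double and 273 to 318 in the sod-5 double. It rose in isp-1 (log2 0.50, adjusted p = 0.0106), a call lost without wild type replicate 2 or isp-1 replicate 1 (highest adjusted p = 0.0531). The cytochrome b5 genes cytb-5.1 (log2 -0.26, adjusted p = 0.345) and cytb-5.2 (log2 -0.12, adjusted p = 0.563) were not called.

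Of 9 genes of the sterol and dafachronic acid pathway outside the family, 7 were tested. Where 9.60% of all genes were called higher and 10.4% lower in isp-1, none of these rose and 1 fell. This was ncr-2, a relative of the human Niemann-Pick cholesterol transport gene, at 7.27 to 7.73 CPM in wild type and 2.64 to 5.49 in isp-1 (log2 -1.01, adjusted p = 0.0374); the call was lost in 8 of 24 alternatives, among them the omission of any wild type library, of isp-1 replicate 1 or 3, or of sod-3 double replicate 1 (highest adjusted p = 0.155). daf-36, which starts dafachronic acid synthesis (log2 0.11, adjusted p = 0.697), the receptor gene daf-12 (log2 -0.01, adjusted p = 0.974), its corepressor gene din-1 (log2 0.11, adjusted p = 0.611) and ncr-1 (log2 -0.10, adjusted p = 0.76) were not called.

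Of 24 regulators of xenobiotic and stress genes, 22 were tested. Of these 5 rose in isp-1 and none fell, against 9.60% and 10.4% of all genes. wdr-23, a repressor of SKN-1, was at 71.9 to 79.97 CPM in wild type and 96 to 109 in isp-1 (log2 0.46, adjusted p = 0.00697), and atfs-1, the regulator of the mitochondrial unfolded protein response, at 79.5 to 81.7 and 110.04 to 125 (log2 0.52, adjusted p = 0.00709). Both calls held under every alternative. egl-9, the HIF-1 prolyl hydroxylase (log2 0.43, adjusted p = 0.025), pha-4, a FoxA factor (log2 0.64, adjusted p = 0.024), and nhr-176, a nuclear receptor that controls cyp-35D1 (log2 0.83, adjusted p = 0.0482), also rose. egl-9 lost its call without wild type replicate 2 or 3 or isp-1 replicate 1 or 3 (highest adjusted p = 0.109), pha-4 without wild type replicate 2 or 3 or any isp-1 library (0.101), and nhr-176 without any wild type or isp-1 library or sod-5 double replicate 2, at a pseudocount of 0.1, with a filter at 5 CPM and with a replicate block (0.174). aha-1 (log2 0.29, adjusted p = 0.132), daf-16 (log2 0.09, adjusted p = 0.644) and daf-2 (log2 0.30, adjusted p = 0.364) were not called, and ahr-1 lay below the filter at 0.374 to 0.621 CPM in wild type and 0.784 to 1.15 in isp-1. No gene of these 3 lists was called in either double against isp-1, where 1.08% and 1.21% of all genes were called.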

How the data were processed

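RNA of whole worms was made into libraries with a stranded mRNA kit, per the labels' protocols. The deposited matrix holds CPM values (read counts scaled to library size) that the authors computed from reads in genes, with 1 column per library. Per the submitters' processing notes, the tools included Subread 1.5.0 and featureCounts 1.4.6, with bcl2fastq 2.17.1.14 and FastQC 0.11.3, then R 3.3.0 with edgeR 3.14.0, and the build was WBcel235; the sources used here do not say which strand setting the counting had. Every gene of the matrix had over 1 CPM in at least 2 libraries. Dividing the deposited CPM by the step of 1 read gave whole reads for 100% of values, within 0.001 reads. Gene names came from the WBcel235 annotation, which held 14250 of 14326 identifiers.

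Genes above 1 CPM in at least 3 of 12 libraries were tested with limma 3.58.1 (R 4.3.3, trend and robust variance) on log2(CPM + 0.5), all 12 libraries in one fit, with Benjamini-Hochberg adjustment over all 14013 genes. Fold changes are on that scale and understate the change of low genes. The procedure was tested on simulated data. A design of 3 against 3 libraries cannot give an exact permutation p below 0.1, so no single-gene permutation test was run. No within-group pair of the 12 compared agreed within sampling noise. Replicate numbers were not used to pair libraries.

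Named in full are daf-9, up to 10 rises and 10 falls of largest size in isp-1, up to 6 each way in each double mutant against isp-1, and the member of highest mean in each subfamily of at least 3; other genes named with values were chosen after these were seen. From the partner and regulator lists, genes called in isp-1 and up to 4 others in alphabetical order are named; nhr-8 is in 2 of these lists. Members and lists were chosen with earlier results of these data known. Alternatives were a stricter filter and none, other pseudocounts, TMM factors, median centring, quantile normalization, omission of rrn-3.1, tests of the recovered reads by DESeq2 1.42.0 or edgeR 4.0.16, fits of the 2 genotypes compared, a replicate block and the omission of each library.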

Additional observations from a re-analysis of the deposited data

How the results depend on the processing

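No call on a P450 gene changed sign under any of the 24 alternatives. In isp-1 against wild type, where 24 genes were called, a filter at 5 CPM left 13 and a fit of these 2 genotypes alone gave 38. In the sod-3 double against isp-1, where 6 were called, DESeq2 gave 11. In the sod-5 double against isp-1, where 5 were called, TMM factors, median centring and quantile normalization gave 8 each and DESeq2 gave 10. Over all genes these 4 settings called 243, 240, 246 and 334, against 169 in the main fit. The filter tests fewer genes. The fit of wild type and isp-1 alone uses fewer libraries and takes its spread without the double mutants. The median within-group log2 SD over all genes was 0.12 in wild type, 0.13 in isp-1, 0.22 and 0.27 in the sod-3 and sod-5 doubles. Called genes among all tested numbered 5702 in the fit of wild type and isp-1 alone and 2798 in the main fit. The cause of the changed counts was not tested. Omitting 1 library gave 16 to 29 calls in isp-1 against wild type, 4 to 6 and 4 to 7 in the sod-3 and sod-5 doubles against isp-1, 23 to 37 and 23 to 40 in these against wild type, and 0 to 0 between the doubles. Counts over all genes are not given for these omissions. Same-numbered libraries did not deviate together (5 of 18 pairs had r above 0.1, range -0.545 to 0.329). With a replicate block the counts were 22, 6 and 4 for isp-1 against wild type and the doubles against isp-1, 28 and 30 for the doubles against wild type, and 0 between them. With that block the counts over all genes were 2182, 127, 123, 1824, 2751 and 13 in the same order. The main fit called 2798, 152, 169, 2379, 3402 and 15. The total of reads differed 28.5-fold between libraries, and members under 1 CPM rest on few reads in the shallow ones.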

Other observations

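P450 genes varied more between libraries of the double mutants than between those of the other genotypes. The median within-group SD on the log2(CPM + 0.5) scale was 0.13 over the 58 members in wild type and 0.13 in isp-1, 0.34 in the sod-3 double mutant and 0.32 in the sod-5 double mutant, where it was 0.12, 0.13, 0.22 and 0.27 over all genes. The SD was above 1 for 10 members in the sod-3 double and 4 in the sod-5 double, against 2.31% and 0.557% of all genes, and for 0 members in the other genotypes.

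Replicate 2 of the sod-3 double exceeded 2 times the highest isp-1 library for 11 members, against 0.799% of all genes, and lay under the lowest isp-1 library by more than that factor for 10, against 3.23%. Replicate 3 of the sod-5 double exceeded 2 times the highest isp-1 library for 7 members, against 2.26% of all genes. It lay under the lowest isp-1 library by more than that factor for 5, against 1.01%. It was highest of all 12 libraries for 27.5% of all genes and for 0 of the 58 P450 genes. Replicate 1 of the sod-5 double was also highest for 0 of them, against 2.88% of all genes.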
